A study of Mus musculus with 4 samples.

Results

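The genes described here belong to the growth hormone and IGF-1 axis of the liver. They are the growth hormone receptor Ghr, the transducer Stat5b, the feedback inhibitors Socs2 and Cish, and the circulating products Igf1 and Igfals. The list further holds the repressor Bcl6 and the growth hormone-dependent, male-biased genes Hsd3b5, Mup1 and Mup3. A member is a listed symbol that names at least 1 gene probe of the array. By this rule 9 of the 10 symbols were found, of 30439 genes on the array, with 18 probes in 27 spots. Mup1 names no probe. The members were chosen by their signals on these same 4 arrays, with the genotype and refeeding differences already known, so all of their values are descriptions without a test.

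Growth hormone from the pituitary binds its receptor on hepatocytes, the receptor-bound kinase JAK2 phosphorylates STAT5, and STAT5 enters the nucleus and drives target genes. Among the targets are Igf1, the hormone that carries much of the growth signal to other tissues, and Igfals, whose protein holds IGF-1 in a stable complex in blood. Socs2 and Cish are also targets, and their proteins damp the receptor signal. Male rodents release growth hormone in pulses and females more evenly, and this pattern sets many sex differences of liver expression.

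Liver RNA was measured on 4 one-colour arrays, 1 for each of the groups Cont, Drp1LiKO, Cont refed and Drp1LiKO refed. All animals were male C57BL/6J mice on a high-fat diet for 24 weeks. The diet began in young mice by the study's methods. Cont mice carry the floxed Drp1 alleles (Drp1 flox/flox, littermates; "wild type" in the labels). Drp1LiKO mice lack Drp1, the mitochondrial fission GTPase, in the liver ("knockout" in the labels). The albumin promoter drives Cre in such liver knockouts, which is aimed at hepatocytes. Which other cells of the liver keep the gene was not measured here. Refed mice were fasted for 17 h and then given food for 4 h. The labels of the other 2 arrays name no feeding state, and they are taken as fasted here from the study's description. By the study's methods fasted livers were collected in the morning and refed livers in the afternoon, so feeding and time of day cannot be told apart. With 1 array per group, differences between groups and between single animals cannot be told apart either, and growth hormone pulses were not recorded.

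A level is the log2 signal of a probe relative to the 75th percentile of the gene spots on its array. It compares arrays for 1 probe and does not rank genes. The measurement SE comes from the scanner software's error model and covers the spot, not the animal. A difference counts as 2-fold when it reaches 1 on the log2 scale and the brighter signal is well above background. The 75th percentile signal was 461, 722, 357 and 526 on the Cont, Drp1LiKO, Cont refed and Drp1LiKO refed arrays, and 51.4%, 58.2%, 48.7% and 55.4% of spots were well above background. No gene spot was saturated. The 1 probe for Dnm1l, which encodes Drp1, differed by -0.21 ± 0.20 (SE) between Drp1LiKO and Cont and by -0.12 ± 0.20 after refeeding. Whether this probe lies in the deleted part of the gene is not known here, so it does not check the genotype.

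Of the 18 member probes, 17 were well above background on all 4 arrays. The exception, a Socs2 probe for a separate transcript model, stayed near background on each of them. In the fasted livers all 9 members had a lower level in Drp1LiKO, with a median difference of -1.05 against -0.08 over all genes. Over all genes with signal the level was lower for 10150 of 18040. Those that were 2-fold lower were Hsd3b5, Socs2, Igfals, Cish and Bcl6, 5 of 9. Of all genes with signal, 5.19% were 2-fold lower and 8.05% 2-fold higher in that comparison, 13.2% in all. After refeeding 8 of the 9 levels were below Cont refed, and the median was -0.55 against -0.04 over all genes. Over all genes 9405 of 17446 were then lower. Hsd3b5 and Socs2 were then 2-fold lower and none was 2-fold higher, beside 6.33% lower and 8.05% higher of all genes, 14.4% together. Because the members were listed from these differences, nothing is read from the counts.

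**Figure D1:**
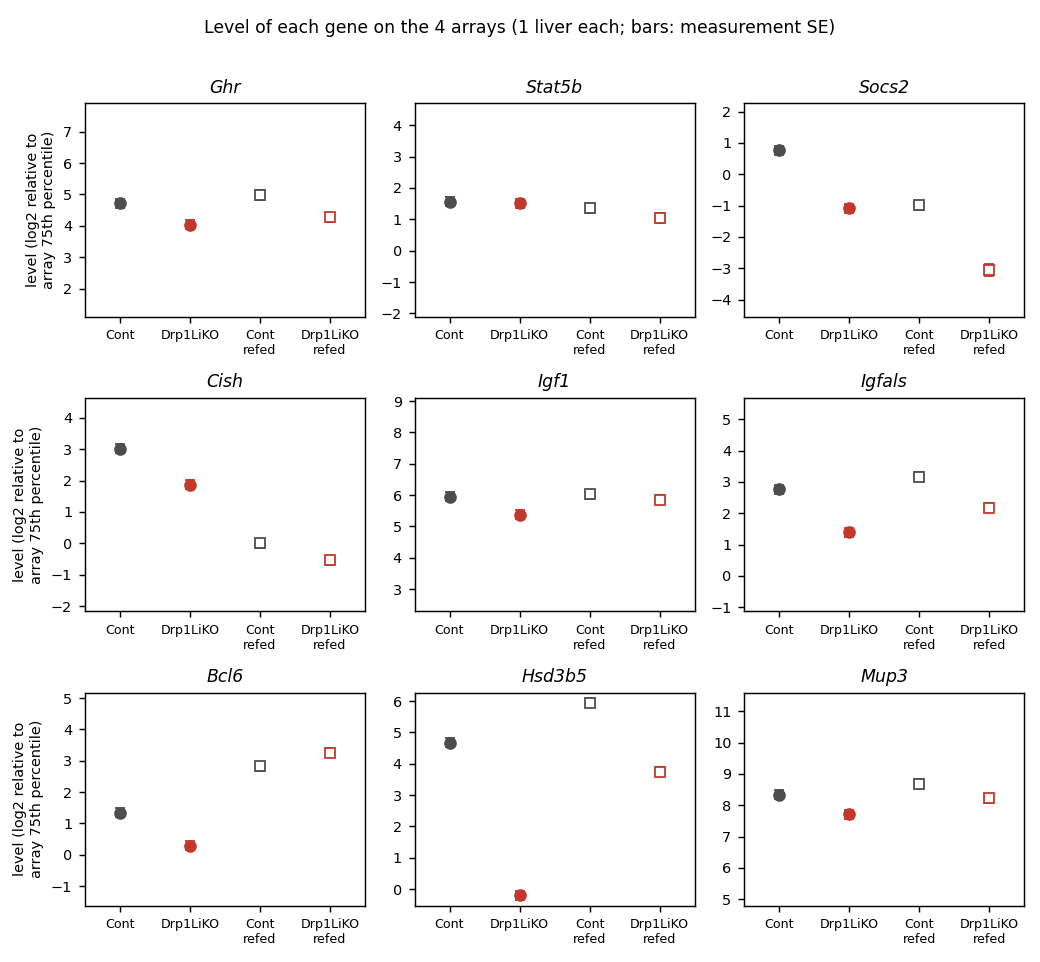
Level of each of the 9 genes on the 4 arrays, in log2 units relative to the 75th percentile of the array, 1 probe per gene and 1 liver per point. Filled circles are fasted, open squares refed, grey Cont and red Drp1LiKO, and bars are the measurement SE, mostly smaller than the symbol. Every panel spans the same number of log2 units, so Hsd3b5, Socs2 and Cish show the widest ranges and Stat5b and Igf1 the narrowest.

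The sequence that joins several members is the palindrome bound by STAT5, TTCNNNGAA, which reads the same on both strands. It was searched in the promoter windows of RefSeq (GRCm38.p6), from 250 bases before to 50 bases after each start. The table holds 13 windows for 8 members, and none was matched for Socs2 or Mup1. The letters occurred in 5 of the 13 windows, those of Cish, Bcl6 and Igfals, and in 8.30% of all 32851 windows. The stretches below, 5′ to 3′ on the strand of the gene with the matches in capitals, are shown because these members hold the letters. The Cish pair lies at chr9:107296659-107296678 (+), with the first bases at positions 1 and 12 counted from the start. The Bcl6 stretch lies at chr16:23981358-23981456 (-), with first bases at positions -168, -122 and -88. The Igfals stretch lies at chr17:24878168-24878186 (+), with its first base at position -58.
Cish: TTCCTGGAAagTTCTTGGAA
Bcl6: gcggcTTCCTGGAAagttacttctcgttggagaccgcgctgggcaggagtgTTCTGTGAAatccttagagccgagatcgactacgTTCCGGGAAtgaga
Igfals: aggtgTTCCTAGAAgaggc
At least 2 matches were found in 0.457% of all windows and at least 3 in 0.0335%. A second Bcl6 window holds 1 match at position -118 and a second Igfals window 1 at position -236. The windows of Ghr, Igf1, Stat5b, Mup3 and Hsd3b5 hold none, which says only that these letters are not within the windows. No binding was measured, and a match is a description of letters.

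Ghr, the receptor itself, is measured by 2 probes, both well above background on every array. The brighter one (chr15:3277543-3277602, mm9, a probe for transcript variant 2) had levels of 4.72 in Cont, 4.03 in Drp1LiKO, 4.98 in Cont refed and 4.27 in Drp1LiKO refed. Both Cont arrays were above both Drp1LiKO arrays. Drp1LiKO differed from Cont by -0.70 ± 0.20 (SE) after fasting and by -0.71 ± 0.20 after refeeding, a 1.62-fold and a 1.64-fold lower level. The other probe (chr15:3268107-3268166) gave -0.78 ± 0.20 and -0.53 ± 0.20. With refeeding Ghr differed little, by 0.26 ± 0.20 in Cont and 0.24 ± 0.20 in Drp1LiKO, neither beyond 2 SE. The size of the genotype difference depends on the scaling, since quantile normalization gave -0.47 and -0.51.

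Stat5b, the STAT that carries most of the growth hormone signal in male liver, was the member with the smallest genotype difference in the fasted livers. Its levels were 1.56 in Cont, 1.51 in Drp1LiKO, 1.35 in Cont refed and 1.04 in Drp1LiKO refed (chr11:100642045-100642104, mm9). No neighbouring pair in that order differed by more than 2 SE. Genotype gave -0.04 ± 0.20 (SE) after fasting and -0.30 ± 0.20 after refeeding, and a second probe gave 0.02 ± 0.20 and -0.28 ± 0.20. The sign of the fasted value turned under quantile normalization (0.06) and normexp background correction (0.01). Refeeding gave -0.21 ± 0.20 in Cont and -0.47 ± 0.20 in Drp1LiKO.

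Socs2, which encodes an inhibitor that is itself induced by STAT5, was lower with the knockout and lower with refeeding. The main probe (chr10:94875066-94875125, mm9) is printed 10 times on each array. Its spots ranged from 716 to 855 signal units in Cont, from 312 to 363 in Drp1LiKO, from 163 to 199 in Cont refed and from 56.4 to 76.99 in Drp1LiKO refed. The spots share 1 RNA sample per array. Once scaled, the spots of Drp1LiKO, from -1.21 to -0.99, overlapped those of Cont refed, from -1.13 to -0.84, and the other arrays stood apart. Levels were 0.76 in Cont, -1.08 in Drp1LiKO, -0.99 in Cont refed and -3.04 in Drp1LiKO refed, so fasted Drp1LiKO and refed Cont lay side by side, 0.09 apart, and the other steps were beyond 2 SE.

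The Socs2 genotype difference was -1.84 ± 0.21 (SE) after fasting, 3.59-fold lower, and -2.05 ± 0.25 after refeeding, 4.13-fold lower. The other 2 probes with signal gave -1.67 ± 0.21 and -1.41 ± 0.21 after fasting, and -1.41 ± 0.23 and -1.74 ± 0.24 after refeeding. The level was lower after refeeding by a similar amount in both genotypes, with differences of -1.75 ± 0.21 in Cont and -1.96 ± 0.24 in Drp1LiKO. The refed Drp1LiKO signal is dim, and with normexp, which adds an offset to every signal, the refed genotype difference was -1.34.

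Cish, which encodes the related inhibitor CIS, showed the widest refeeding difference of any member in Cont. Its levels were 3.02 in Cont, 1.87 in Drp1LiKO, 0.00 in Cont refed and -0.54 in Drp1LiKO refed (chr9:107204196-107204255, mm9). Both fasted arrays were above both refed arrays, and every step in the order exceeded 2 SE. Refeeding gave -3.01 ± 0.21 in Cont, 8.07-fold lower, and -2.41 ± 0.20 in Drp1LiKO, 5.32-fold lower. With genotype the difference was -1.15 ± 0.20 after fasting, 2.22-fold lower, and -0.55 ± 0.21 after refeeding. This is the gene printed above with a pair of STAT5-type palindromes at its start.

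The nearest pattern to that of Cish over the 4 arrays, among 14446 genes well above background on all of them, was that of Abcd2, a peroxisomal fatty acid transporter. The root mean square distance between centred levels was 0.159 log2 units. Abcd2 gave -1.36 and -0.92 with genotype after fasting and refeeding, and -3.01 and -2.57 with refeeding in Cont and Drp1LiKO. The next nearest were A130072N09Rik at 0.184 and the transcript AK170517 at 0.239.

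Igf1, the hormone product of the axis, was lower in fasted Drp1LiKO on 5 of 5 probes. The brightest probe (chr10:87393581-87393640, mm9) had levels of 5.94 in Cont, 5.37 in Drp1LiKO, 6.02 in Cont refed and 5.85 in Drp1LiKO refed. The fasted Drp1LiKO array stood below the other 3, which lay within 2 SE of their neighbours. The genotype difference was -0.57 ± 0.20 (SE), 1.48-fold lower, after fasting and -0.17 ± 0.20 after refeeding. Over the 5 probes it ranged from -0.86 to -0.57 after fasting and from -0.58 to -0.17 after refeeding, all below 0 and none 2-fold.

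The Igf1 probes disagreed on refeeding. The brightest probe and the one that overlaps it (chr10:87393561-87393620) gave 0.08 and 0.04 in Cont, while the other 3, elsewhere in the gene, gave -0.31, -0.57 and -0.64. In Drp1LiKO the overlapping pair gave 0.48 and 0.44, and the others -0.12, -0.17 and -0.04. A direction of Igf1 with refeeding is therefore not given. The unscaled signals of the brightest probe were 28285 in Cont and 29905 in Drp1LiKO, so its lower level after fasting comes with the higher divisor of the Drp1LiKO array. Under quantile normalization it gave -0.27 and the overlapping probe -0.28. The other 3 probes were lower unscaled too, at 5590, 2578 and 400 in Cont and 5122, 2284.5 and 345 in Drp1LiKO. Quantile normalization gave -0.60, -0.71 and -0.87 for these 3. The gene nearest in pattern to the brightest probe was Zfp787, a zinc finger gene, at 0.0126 log2 units. The unnamed features A_55_P2120303 at 0.0135 and NAP111802-1 at 0.0221 followed. These distances are below the measurement SE of a level, 0.14, so their order is not resolved.

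Igfals encodes the acid-labile subunit, which hepatocytes secrete and which binds IGF-1 together with a binding protein in blood. Levels were 2.76 in Cont, 1.39 in Drp1LiKO, 3.16 in Cont refed and 2.18 in Drp1LiKO refed (chr17:25018251-25018310, mm9). Both Cont arrays were above both Drp1LiKO arrays, by more than 2 SE. Drp1LiKO differed from Cont by -1.37 ± 0.20 (SE) after fasting, 2.59-fold lower, and by -0.98 ± 0.20 after refeeding, 1.98-fold lower and just short of 2-fold. Refeeding gave 0.40 ± 0.20 in Cont, not beyond 2 SE, and 0.79 ± 0.20 in Drp1LiKO.

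**Figure D2:**
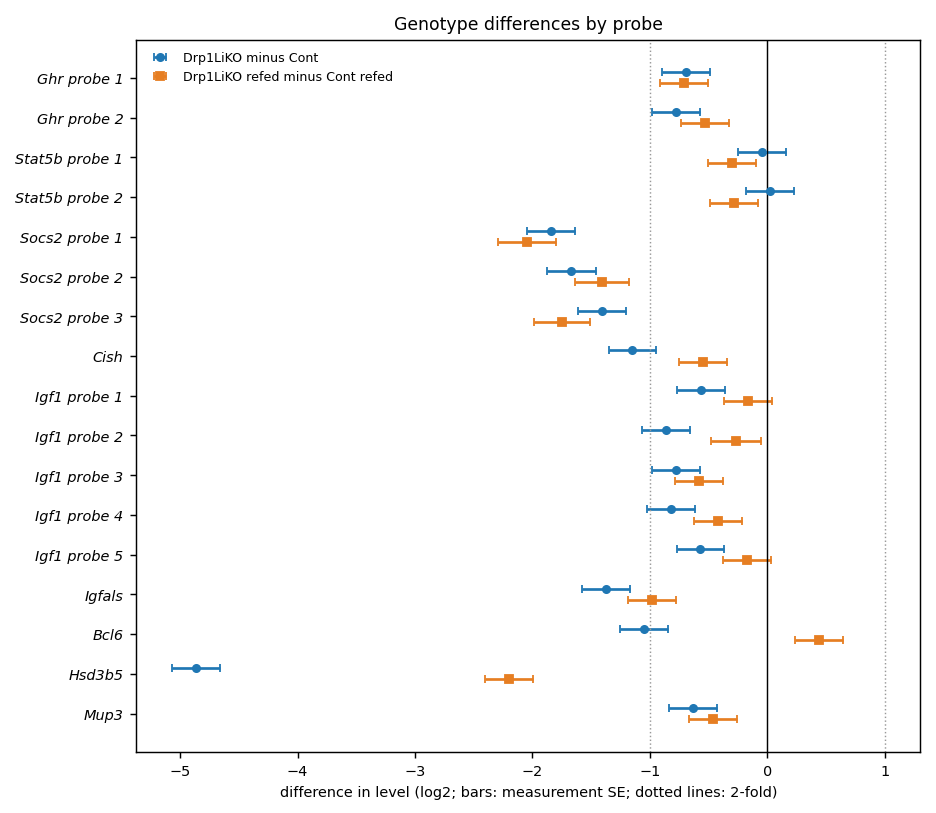
Genotype differences in log2 units for the 17 member probes well above background on all arrays, circles for Drp1LiKO minus Cont and squares for Drp1LiKO refed minus Cont refed. Bars are the measurement SE and dotted lines mark 2-fold; Bcl6 is the gene whose squares and circles lie well apart on opposite sides of 0.

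Bcl6 encodes a transcriptional repressor that binds many of the same sites as STAT5 and is itself lowered by growth hormone in liver. Levels were 1.33 in Cont, 0.29 in Drp1LiKO, 2.82 in Cont refed and 3.26 in Drp1LiKO refed (chr16:23965160-23965219, mm9). Both refed arrays were above both fasted arrays, and every step in the order exceeded 2 SE. Refeeding gave 1.49 ± 0.20 (SE) in Cont, 2.81-fold higher, and 2.97 ± 0.20 in Drp1LiKO, 7.85-fold higher. The genotype difference was -1.05 ± 0.20 after fasting and 0.44 ± 0.20 after refeeding. The fasted value is just past 2-fold and was -0.95 with normexp. The start of the shorter Bcl6 transcript is the one printed above with 3 palindromes.

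Hsd3b5, a male-biased steroid dehydrogenase of hepatocytes, had the widest range of the members. Its levels were 4.67 in Cont, -0.20 in Drp1LiKO, 5.95 in Cont refed and 3.74 in Drp1LiKO refed (chr3:98422576-98422635, mm9). The fasted Drp1LiKO array stood alone, 3.94 below the next, and every step exceeded 2 SE. The genotype difference was -4.87 ± 0.20 (SE) after fasting, 29.2-fold lower, and -2.20 ± 0.20 after refeeding, 4.60-fold lower. It was the 87th lowest difference of 18040 genes after fasting and the 461st lowest of 17446 after refeeding. Refeeding gave 1.28 ± 0.20 in Cont and 3.94 ± 0.20 in Drp1LiKO.

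Hsd3b5 has paralogs, and the most similar other probe, for Hsd3b4, shares 42 bases over an aligned 53. That probe differed by -0.80 and -0.17 with genotype, a much smaller amount. The nearest patterns were those of Hnf4aos, an RNA antisense to Hnf4a, at 0.852 log2 units, Serpina9 at 0.945 and Thrsp, a lipogenic gene, at 1.08. These distances are several times the measurement SE of a level, and Hnf4aos gave -3.56 and -1.18 with genotype.

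The major urinary proteins are pheromone carriers made in male liver in very large amounts under pulsed growth hormone. Mup3 had levels of 8.34 in Cont, 7.71 in Drp1LiKO, 8.69 in Cont refed and 8.22 in Drp1LiKO refed (chr4:61745794-61745853, mm9). The genotype difference was -0.63 ± 0.20 (SE) after fasting and -0.47 ± 0.20 after refeeding. The unscaled Mup3 signals were almost the same on the 4 arrays, the highest 1.07 times the lowest, while the arrays' divisors differed by 2.02 times. Quantile normalization brought the genotype differences to -0.15 and -0.12. The lower level of Mup3 thus rests on the scaling, and whether so bright a probe still responds in proportion to its RNA was not tested.

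The Mup genes are near copies of each other, and a pair of their probes that shares much sequence is shown. The other Mup probes match the Mup3 probe at 25 bases or fewer. The array's Mup3 probe and its Mup6 probe match at 51 of 60 bases, with the 9 differing bases of the latter in capitals.
Mup3 probe: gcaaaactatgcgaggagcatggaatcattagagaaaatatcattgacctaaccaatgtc
Mup6 probe: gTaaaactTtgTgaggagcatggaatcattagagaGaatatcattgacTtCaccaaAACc
A transcript model named ENSMUST00000098035 has a probe that matches Mup3's at 52 of 60 bases, and it differed by -0.30 with genotype after fasting and -0.07 after refeeding. For comparison, the 16 member probes other than those of Mup3 and Hsd3b5 share at most 38 bases with any probe of another gene.

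Over the whole family 11 of 21 listed Mup genes were on the array, and all 11 had lower levels in Drp1LiKO, with medians of -0.63 after fasting and -0.49 after refeeding. Over all genes with signal 10150 of 18040 were lower after fasting and 9405 of 17446 after refeeding. Mup6 alone was 2-fold lower, by -1.02 after fasting, beside 5.19% of all genes. Under quantile normalization the medians of the 11 Mup genes were -0.12 and -0.12. Among the 14 probes of the family, 13 were lower with genotype in each feeding state. A dimmer Mup9 probe gave the widest values, -1.96 and -1.34, and a dim Mup4 probe the only positive ones, 0.07 and 0.11. Mup1 has no probe under its own name, but 3 probes named Mup2, Mup9 and Mup19 list a Mup1 transcript among their targets. They gave -0.82 to -0.62 after fasting and -0.59 to -0.49 after refeeding.

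**Figure D3:**
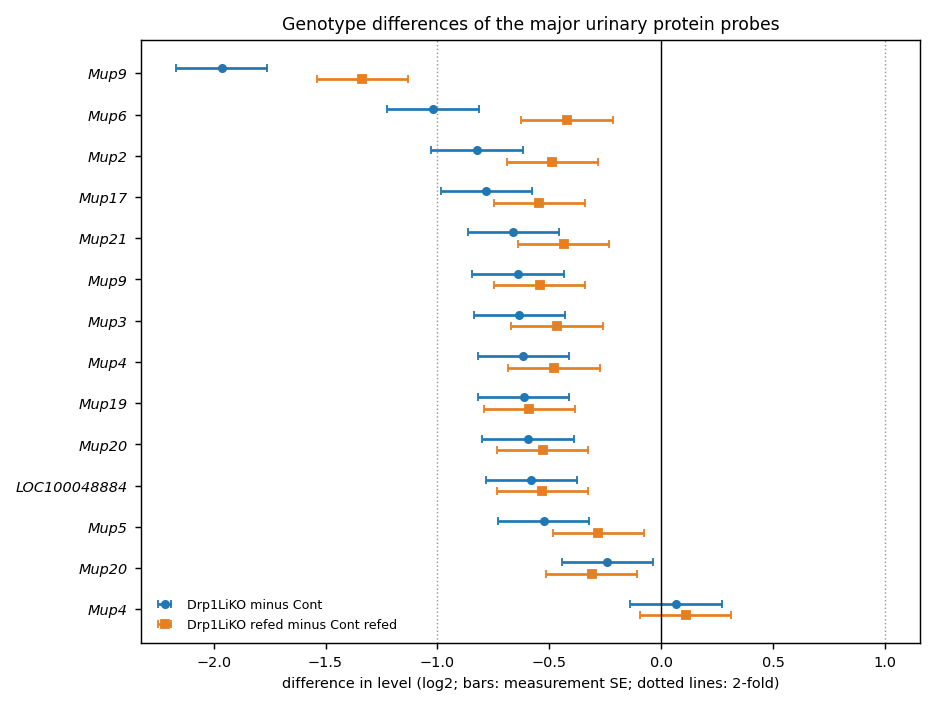
Genotype differences in log2 units for the 14 probes of the major urinary protein family, labelled with the gene name of the array design, circles fasted and squares refed, with the measurement SE. All lie left of 0 except a dim Mup4 probe, most of them between -0.82 and -0.24 after fasting.

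The refeeding differences that reached 2-fold belonged to 4 members. Bcl6 and Hsd3b5 were 2-fold higher after refeeding in Cont, beside 4.47% of all genes, and Cish and Socs2 2-fold lower, beside 5.83%. Together 10.3% of all genes were 2-fold different in Cont. The same 4 genes passed 2-fold in the same direction in Drp1LiKO, beside 5.61% higher and 7.15% lower, 12.8% in all. The medians of the 9 members were 0.26 in Cont and 0.48 in Drp1LiKO, against 0.09 and 0.08 over all genes.

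**Figure D4:**
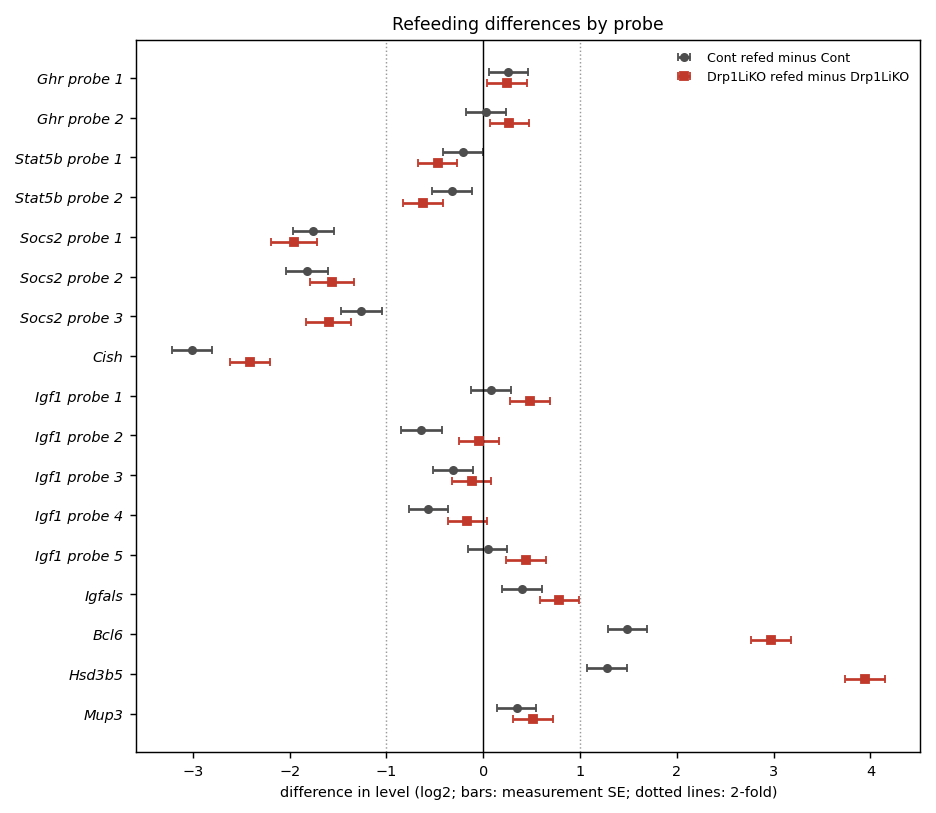
Refeeding differences in log2 units for the 17 member probes, circles for Cont refed minus Cont and squares for Drp1LiKO refed minus Drp1LiKO, with the measurement SE and dotted lines at 2-fold. Cish and Socs2 lie left of -1 in both genotypes and Bcl6 and Hsd3b5 right of 1, while the Igf1 probes fall on either side of 0.

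The other genes of the pathway were described from lists that were also made with earlier results known. Their counts of lower levels stand beside 10150 of 18040 genes with signal after fasting and 9405 of 17446 after refeeding. Of all genes with signal 5.19% were 2-fold lower and 8.05% 2-fold higher after fasting, and 6.33% and 8.05% after refeeding. Of 14 genes of growth hormone receptor signalling with signal in the fasted livers, 12 had lower levels in Drp1LiKO and 2 were 2-fold lower. These were Grb10, an adaptor that inhibits receptor kinases, at -2.41 ± 0.33 (SE), and the prolactin receptor Prlr at -1.92 ± 0.20. The Grb10 signal is dim, at 110 in Cont and 32.4 in Drp1LiKO, and with normexp its difference was -1.30. After refeeding 10 of 13 genes of this list were lower and none 2-fold. Jak2, the receptor's kinase, gave -0.09 ± 0.20 and -0.04 ± 0.21.

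Among 10 inhibitors of the pathway only Socs2 and Cish were 2-fold lower in the fasted livers. There 7 of the 10 had lower levels in Drp1LiKO, with a median of -0.09, and after refeeding 4 of 9, with a median of 0.04. After refeeding Socs2 was 2-fold lower and Socs1, an inhibitor induced by cytokines, 2-fold higher, by 1.40 ± 0.33 (SE). The Socs1 signal is dim, at 36.1 in Cont refed, and with normexp its refed difference was 0.51, short of 2-fold. Socs3, which responds to inflammatory cytokines, differed by -0.9998 ± 0.20 after fasting, just short of 2-fold, and by -0.05 ± 0.21 after refeeding. It was lower after refeeding by -2.15 in Cont and -1.20 in Drp1LiKO. So 3 inhibitors, Cish, Socs2 and Socs3, were 2-fold lower after refeeding in each genotype, beside 5.83% of all genes in Cont and 7.15% in Drp1LiKO. In Drp1LiKO alone Pias3 was nominally 2-fold lower too, with a bound of only -0.25. There Socs1 was 2-fold higher after refeeding, by 1.09 ± 0.23, beside 5.61% of all genes, and with normexp by 0.78.

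Of the IGF ligands, receptors and binding proteins, 12 of 17 listed genes had signal in the fasted livers. There 9 had higher and 3 lower levels in Drp1LiKO, with a median of 0.33. After refeeding 5 were higher and 8 lower, with a median of -0.02. Igfbp1, a binding protein that insulin lowers and fasting raises, had levels of 3.395 in Cont, 7.08 in Drp1LiKO, 1.52 in Cont refed and 2.67 in Drp1LiKO refed. It was higher in Drp1LiKO by 3.68 ± 0.20 (SE) after fasting and 1.15 ± 0.20 after refeeding, opposite in sign to Igfals. Igfbp3, the partner of Igfals in blood, was higher by 1.36 ± 0.30 after fasting and 0.31 ± 0.33 after refeeding. Its signal is dim, at 38.9 in Cont, and with normexp these differences were 0.46 and -0.12. Stc2, which inhibits release of IGF from its binding proteins, was well above background in Cont refed alone, and the bound on its refed genotype difference was -1.57.

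**Figure D5:**
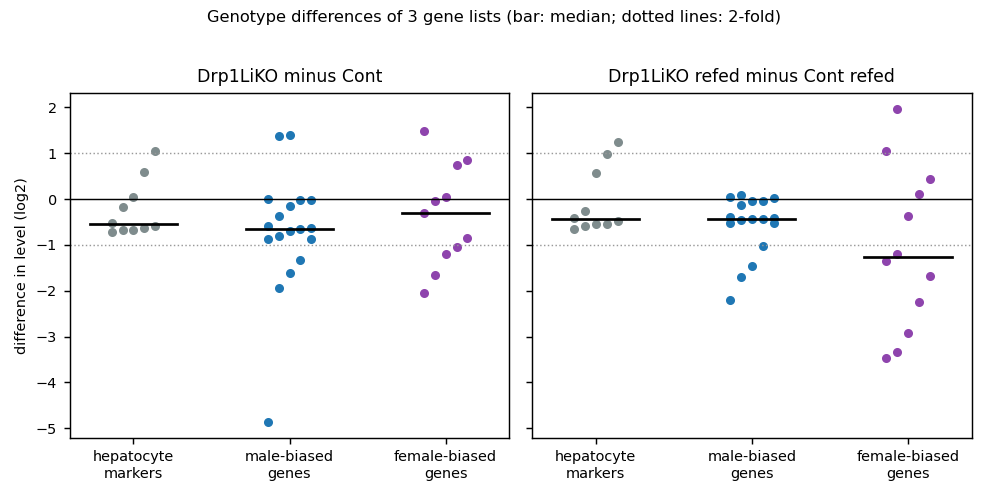
Genotype differences in log2 units for listed hepatocyte markers, male-biased and female-biased liver genes with signal, 1 point per gene and a bar at the median, fasted on the left and refed on the right. After fasting the medians of hepatocyte markers and male-biased genes are -0.55 and -0.65, and under quantile normalization they were 0.03 and -0.27.

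Male-biased liver genes, the group Hsd3b5 belongs to, had lower levels in Drp1LiKO for 16 of 18 after fasting and 14 of 17 after refeeding, with medians of -0.65 and -0.43. Under quantile normalization both medians were -0.27. After Hsd3b5 the lowest fasted values were those of Cspg5 and Nudt7. Cspg5 was not well above background in Drp1LiKO, and its measured difference was -1.94. Nudt7, a peroxisomal coenzyme A hydrolase, gave -1.62 ± 0.20 (SE). The list did not move as a whole, since Cyp4a12a and Cyp4a12b, fatty acid hydroxylases that are near copies of each other, were higher by 1.38 and 1.39. After refeeding the lowest were Hsd3b5, the organic anion transporter Slco1a1 at -1.70 ± 0.20 and the fatty acid elongase Elovl3 at -1.45 ± 0.20. Cyp4a12a and Cyp4a12b then differed by 0.04 and 0.09.

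Pulsed growth hormone holds female-biased liver genes low in males. Of 11 with signal after fasting, 7 had lower levels in Drp1LiKO, and of 12 after refeeding 8 did, with medians of -0.31 and -1.28. These counts of direction are near the share of all genes, 10150 of 18040 lower after fasting and 9405 of 17446 after refeeding. Of the list 4 of 11 were 2-fold lower after fasting and 7 of 12 after refeeding, beside 5.19% and 6.33% of all genes. In the same order 1 and 2 were 2-fold higher, beside 8.05% of all genes in each state. Acot3, an acyl coenzyme A thioesterase, gave -2.05 ± 0.20 (SE) and -3.34 ± 0.21. The cytochrome P450 gene Cyp2b13 gave -1.66 ± 0.22 and -3.47 ± 0.33. Cyp2b9, measured at -2.92 after refeeding, was not well above background in Drp1LiKO refed. Cyp17a1, a steroid hydroxylase, gave -1.19 ± 0.20 and -1.20 ± 0.20. Atp6v0d2 was higher by 1.49 ± 0.35 after fasting, and after refeeding, where Cont refed was not well above background, the bound was 0.93. It encodes a proton pump subunit that macrophages also express. Prom1 was nominally higher after refeeding, with a bound of only 0.27.

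Of 16 listed transcription factors of sex-biased expression, 13 of the 15 with signal had lower levels in fasted Drp1LiKO. Onecut1, a hepatocyte factor that growth hormone induces, was lower by -2.00 ± 0.20 (SE) after fasting and -1.54 ± 0.20 after refeeding. Foxa1 was 2-fold lower after fasting, at -1.10 ± 0.20, as was Bcl6. After refeeding Cux2, a factor of female liver, was lower with a bound of -1.16.

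Markers of hepatocytes and of other cells are given here beside the members. In bulk liver, fewer cells of a type and less RNA per cell cannot be told apart. Of 10 hepatocyte markers 7 had lower levels in Drp1LiKO in each feeding state, with medians of -0.55 and -0.44. Over all genes with signal 10150 of 18040 were lower after fasting and 9405 of 17446 after refeeding. None of the 10 markers was 2-fold lower, beside 5.19% and 6.33% of all genes. Tat was 2-fold higher after fasting, by 1.04, and Cps1 after refeeding, by 1.24, beside 8.05% of all genes in each state. The summed level of the 10 markers, in multiples of the 75th percentile, was 3371 in Cont, 2303 in Drp1LiKO, 4011 in Cont refed and 2856 in Drp1LiKO refed. Under quantile normalization the hepatocyte medians were 0.03 and -0.08.

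Of 12 Kupffer cell and macrophage markers 10 were higher in Drp1LiKO after fasting and 12 after refeeding, 5 and 6 of them 2-fold. Over all genes with signal 7890 of 18040 and 8041 of 17446 were higher, and 8.05% were 2-fold higher in each feeding state. The summed level of these markers was 101 in Cont, 123 in Drp1LiKO, 113 in Cont refed and 204 in Drp1LiKO refed, and macrophages too make IGF-1. Adipocyte markers summed to 11.0, 3.10, 44.2 and 3.95 in the same order, with 3 of 6 well above background on every array. Of these, Cfd and Cidea were 2-fold lower in Drp1LiKO in each feeding state, beside 5.19% and 6.33% of all genes. The remaining marker with signal was higher, by 0.01 and 0.31, so the list did not move as a whole. The part of these cells in the members' values was not tested. Under quantile normalization the fasted genotype differences of Socs2, Cish, Igfals, Bcl6 and Hsd3b5 were -1.85, -1.03, -1.29, -1.03 and -4.83.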

How the data were processed

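Labelled RNA of 4 mouse livers was hybridised to Agilent 60-mer arrays, all on 1 slide. The deposited scanner files hold the processed intensity per spot, which per the file headers is background-subtracted by Feature Extraction 10.7.1.1 (9.5.1.1 in the submitters' processing notes) and is not normalized between arrays. The authors also deposited a table of quantile-normalized intensity values, used as an alternative. The number of arrays, 1 per group, limits the precision, so no test was run. Of 43020 gene spots those flagged as outliers were dropped, signals were divided by the 75th percentile of the array and put on the log2 scale, and repeated spots were averaged. Symbols were updated by RefSeq accession (21012 of 22472 matched). A gene with several probes was represented by the probe detected above background most often, then the brightest. Where the dim side was not well above background, a bound was computed with the lowest signal well above background. Probe positions were read from the scanner files, which use mm9.

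All members were described with each of their probes. Of each other pathway list the text names up to 3 highest and 3 lowest genotype differences of at least 2-fold per feeding state, and the 3 genes nearest in pattern to Igf1, Cish and Hsd3b5. A result that this rule would name is not reported here. Jak2, Socs3, Pias3 and the neighbouring probes were named after their values were seen. The members and lists were chosen with earlier results of these data known. The 8 alternatives were median scaling, quantile normalization, normexp with offset 50 (limma 3.58.1, R 4.3.3), the authors' values, the median over probes, a filter for signal on all arrays, a 1.5-fold threshold and bounds for dim signals. Python 3.11.15, numpy 2.4.6 and pandas 2.3.3 were used, and the steps were tested on simulated data. The labels say that the 2 arrays without a feeding state share raw data with earlier submissions.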

Additional observations from a re-analysis of the deposited data

Results flagged for a closer look

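Bcl6 was singled out because its genotype difference pointed down in the fasted livers and up after refeeding. The change between the feeding states was 1.48 on the log2 scale. The difference was not tested, since each group holds 1 array.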

How the results depend on the processing

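Under the 5 alternatives that can change a member value, 146 of 180 values moved by less than their measurement SE and 34 by more. The other 3 leave all member values as they are. The authors' values are themselves quantile-normalized and nearly repeat the quantile alternative, so they are not a separate check. None that was at least 2-fold changed sign, while 9 smaller values did, all of them of Stat5b, Igf1 or Ghr. The median refeeding difference of the members moved in Cont to 0.0088 under quantile normalization and with the authors' values. In Drp1LiKO it moved to 0.0345 and 0.0334, and to 0.257 with the median over probes. At 1.5-fold, 4 members rather than 2 differed with genotype after refeeding. Counts of all genes past the threshold depend strongly on the treatment of dim signals. In the order genotype after fasting, genotype after refeeding, refeeding in Cont and refeeding in Drp1LiKO, 2388, 2509, 1693 and 2339 genes were called. Normexp gave 927, 1072, 726 and 888, of which 358, 363, 439 and 501 were higher and 569, 709, 287 and 387 lower. Requiring signal on all arrays gave 874, 1028, 573 and 848, with 396 higher and 478 lower, and 451 higher and 577 lower, for genotype. Bounds for dim signals gave 777 higher and 909 lower, and 703 higher and 1105 lower, for genotype, and the 1.5-fold threshold 5086, 5257, 3577 and 5942. No paired analysis was possible because each group holds 1 array, and no array could be left out. Precision is limited to the measurement of a spot, and differences between animals are not measured.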
